A study of Rattus norvegicus with 6 samples.

Results

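The genes described here are those that burn fatty acids in the kidney and the targets of the receptor that controls them. They were chosen by name: the nuclear receptor PPAR-alpha (Ppara), its coactivator Ppargc1a, and the genes of fatty acid uptake, activation, mitochondrial and peroxisomal beta-oxidation, and ketone body use. Of 43 genes on that list, 42 had at least 1 probe set that the array annotation maps to that gene alone, 61 probe sets in all, of the 31042 probe sets and 14217 genes tested. The remaining member, Acaa1a, was covered by no probe set of its own, and 4 probe sets shared by a member and a neighbouring or paralogous gene were not used. RNA was taken from the kidneys of 3 rats of the congenic strain S.LEW(10)x12x2x3x5 and of 3 Dahl salt-sensitive (S) control rats, all males born on 1 day, weaned at 30 days, fed a diet with 0.3% salt and killed at 53 days. Each cage held a congenic rat and an S rat. Dahl S rats are inbred and prone to hypertension on salt and to proteinuria. The congenic strain has the S background and, as its name states, a LEW (Lewis) stretch of chromosome 10. Each rat gave 1 Affymetrix array, so the number of rats limits the precision. A probe set is a group of short probes that reports 1 stretch of a transcript, mostly near its 3′ end, and its value is a log2 intensity. Intensities of different probe sets cannot be ranked as levels, since probes differ in brightness.

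The proximal tubule of the kidney draws most of its energy from fatty acids. These enter through transporters such as CD36 and FATP2 (Slc27a2), are joined to coenzyme A by acyl-CoA synthetases, and cross into mitochondria as carnitine esters, a step set by carnitine palmitoyltransferase 1. Beta-oxidation then shortens them in turns of dehydrogenation, hydration, dehydrogenation and thiolysis, while peroxisomes shorten the longest and branched chains. PPAR-alpha pairs with the retinoid X receptor (RXR) on DNA and, when bound by fatty acids, switches on many of these genes, in part with the coactivator PGC-1 alpha.

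Most of these genes did not differ between congenic and S kidneys beyond the test. With each gene taken by its brightest probe set, 1 of 42 was called, Acox3, a peroxisomal acyl-CoA oxidase of branched chains, which was higher in congenic rats, and 41 were not (limma, adjusted p under 0.05 over all 31042 probe sets). Over all genes 4.79% were called by the same rule. Over all 61 probe sets of the members 3 were called, against 6.00% of the whole array: Acox3, a second probe set of Cpt1a (carnitine palmitoyltransferase 1A), which rose, and a second probe set of Bdh1 (a ketone body dehydrogenase), which fell. The median log2 difference, congenic minus S, was -0.05 over the 42 members and -0.03 over all genes, and 39 of the 42 lay within 0.5 of 0. Of the 42 members 18 had a difference above 0 (42.9%), against 40.6% of all genes. The values of congenic and S rats did not overlap in 16 of 42 members, and in 33.4% of all genes. At an unadjusted p under 0.05 were 13 of 42 members, 5 higher and 8 lower in congenic rats, against 25.6% of all genes, and 22 of the 61 probe sets, against 25.4% of the array. At an adjusted p under 0.1 were 10 of 61, against 14.4%, and at 0.01 none, against 0.0644%.

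**Figure D1:**
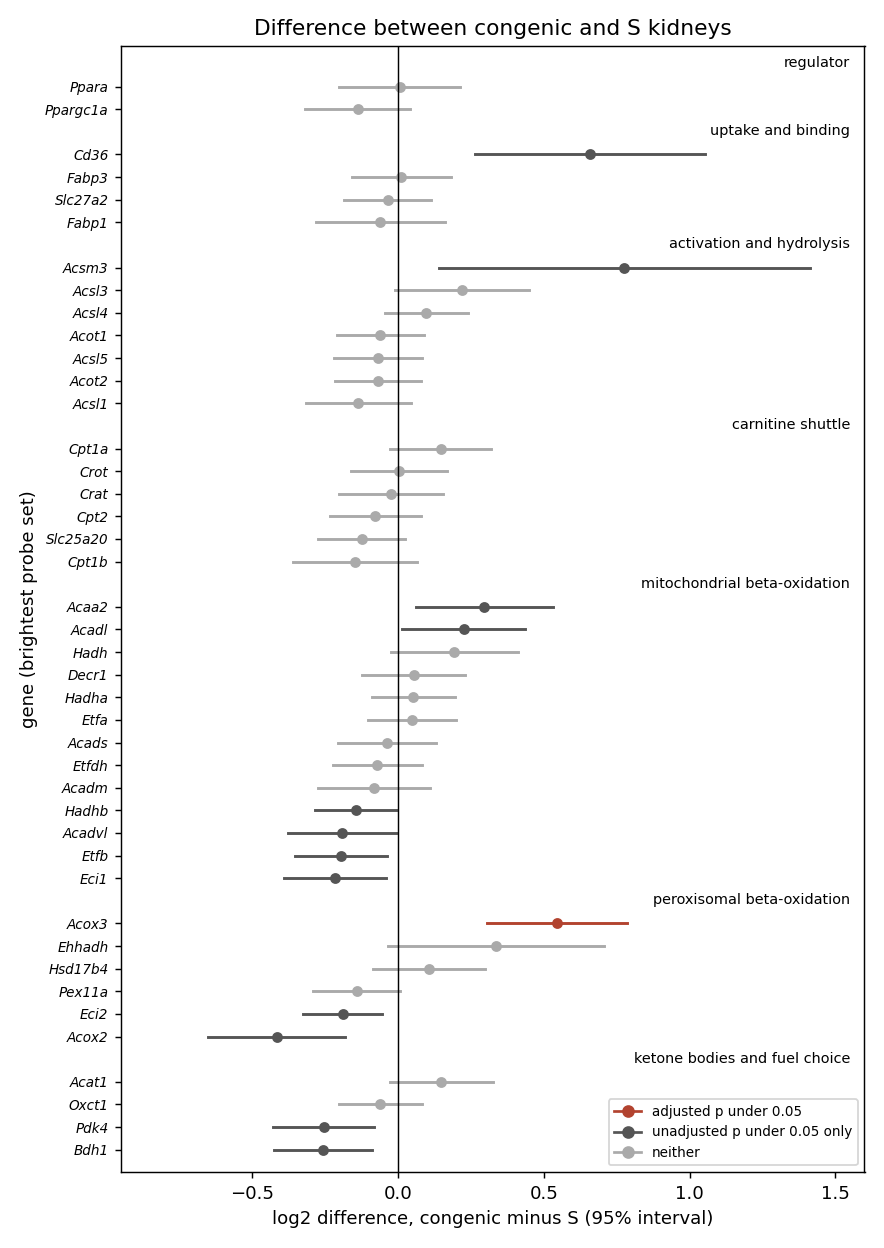
Log2 difference, congenic minus S, of the brightest probe set of each of 42 genes with its 95% interval (limma, 3 rats per group), ordered by role. Acox3, in red at 0.55, is the gene called, 39 of the 42 lie within 0.5 of 0, and Acsm3 at 0.78 has the widest interval.

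The S rats varied more than the congenic rats, and S rat 2 stood apart. The SD among S rats was larger than that among congenic rats in 28 of 42 members (66.7%) and in 65.7% of all genes. S rat 2 had the lowest of the 6 values in 18 of 42 members (42.9%), against 19.6% of all genes, and the highest in 10 members (23.8%), against 38.7% of all genes. The gap between 3′ and 5′ controls for Gapdh and beta-actin, which widens when RNA is degraded, was 1.26, 1.01 and 1.08 in congenic rats 1, 2 and 3, against 1.56, 2.10 and 1.70 in S rats 1, 2 and 3 (log2; congenic minus S -0.67, exact permutation p = 0.1, two-sided, the smallest possible with 3 against 3). S rat 2 was the lowest of the 6 rats in 4 of 4 podocyte markers and 2 of 3 distal convoluted tubule markers (Calb1 and Slc12a3, not Pvalb). It was the lowest in 7 of 12 early proximal tubule markers and the highest in 4, and the lowest in 1 of 9 late ones and the highest in 4. It was also the lowest in 5 of 9 collecting duct, 2 of 2 red cell, 2 of 5 endothelial and 2 of 6 fibroblast markers. In the other lists it was the lowest in 1 of 6 thick ascending limb, 0 of 6 macrophage, 0 of 10 white fat, 2 of 10 brown fat and 1 of 7 skeletal muscle markers. Calb1 was at 13.46 to 13.52 in congenic rats, against 13.51, 9.38 and 12.73 in S rats 1, 2 and 3. The podocyte gene Nphs1 was at 8.27 to 8.47 in congenic rats, against 8.87, 5.67 and 6.90 in S rats 1, 2 and 3. In tissue RNA, fewer cells of a type and less RNA per cell cannot be told apart, and the part of these differences in the values below was not tested. When limma's model also held that gap (the RNA quality term), 0 of 31042 probe sets passed. An unadjusted p under 0.05 was then found for 2292, against 7895 with no such term.

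**Figure D2:**
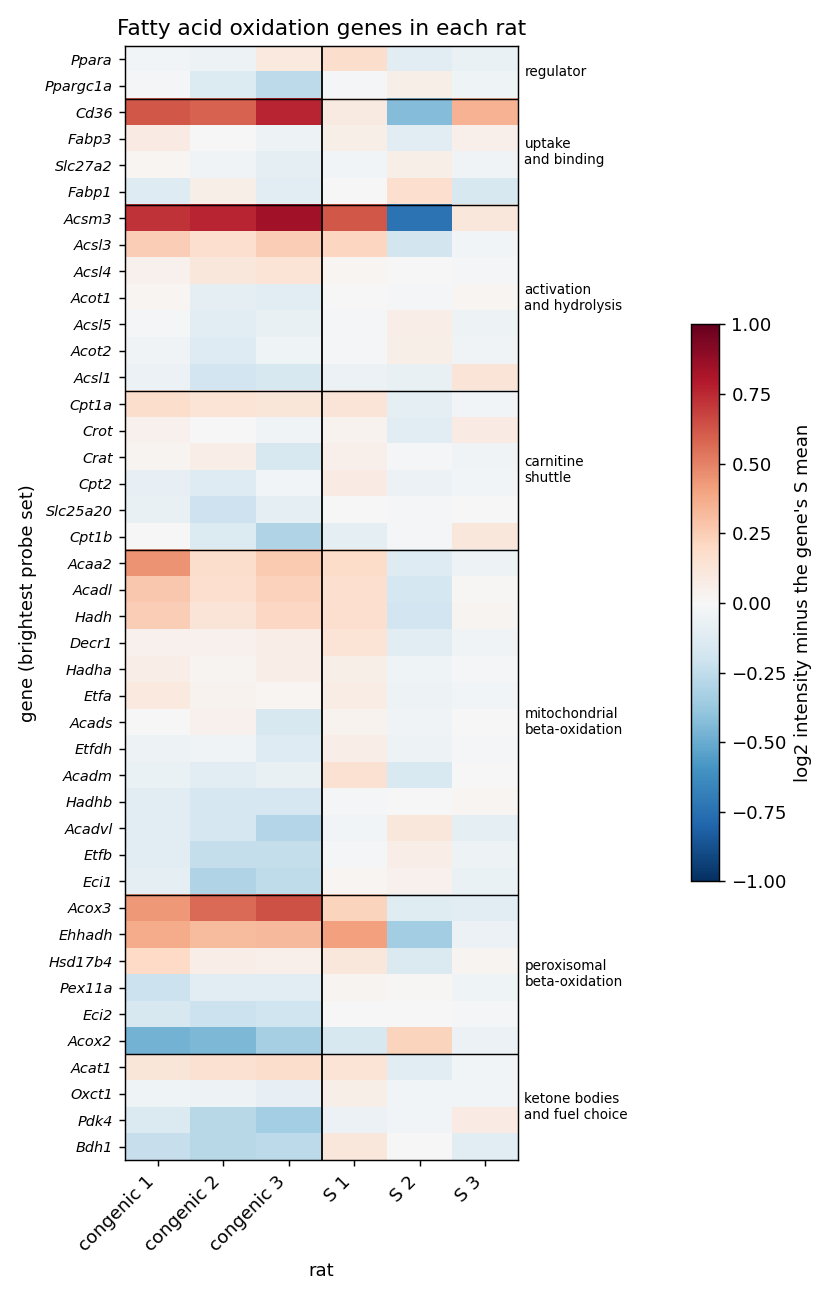
Log2 intensity of the brightest probe set of 42 genes in each rat, as the difference from that gene's mean over the 3 S rats (colour, rows grouped by role, congenic rats left of S rats). Acsm3, Cd36, Acox3 and Ehhadh show the widest range of colour, and S rat 2 has the lowest value of the 6 in 18 rows.

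Neither regulator passed. Ppara was at 5.50, 5.48 and 5.63 in congenic rats 1, 2 and 3, against 5.71, 5.42 and 5.47 in S rats 1, 2 and 3 (log2 difference 0.0060 ± 0.09 SE, adjusted p = 0.98, limma). The groups overlapped, and the 95% interval of the difference ran from -0.20 to 0.21. All these values lay under the lower quartile of the tested intensities, 5.91, and with no detection call the array gives little on Ppara itself. Ppargc1a, the coactivator induced by fasting, cold and endurance exercise, had 3 probe sets that disagreed. The brightest was at 10.46, 10.35 and 10.21 in congenic rats, against 10.46, 10.53 and 10.44 in S rats (-0.14 ± 0.08 SE, adjusted p = 0.32, limma). Its dimmer probe sets stood at 0.32 ± 0.10 (adjusted p = 0.0973) and at 0.41 ± 0.14 (adjusted p = 0.11), the last of them under the lower quartile. The 3 differences became 0.02, 0.08 and -0.19 once RNA quality was in the model.

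PPAR-alpha and RXR bind 2 copies of AGGTCA spaced by 1 base. That element was searched on both strands of the RefSeq promoter windows (GRCr8, 250 bases before to 50 after the annotated start), which 39 of the 43 members had. With at most 2 mismatches outside the spacer it occurred in 6 of 39 member windows (15.4%) and in 3.71% of 27457 windows of all genes, and with at most 1 mismatch in 2 of 39 (5.13%) and 0.463%. No member window held a copy without mismatch. The 6 stretches are shown because they are the closest matches to that element in the member windows. Sequence outside the windows was not searched. The 13 bases of the match are in capitals, with 8 bases on each side, in the direction of the gene. The windows of Fabp1, Etfa and Slc27a2 hold the element on the opposite strand, so that it reads as TGACCT copies. The matches of Acadvl and Fabp1 have 1 mismatch and the others 2.
Acadvl: gggagaagAGGTCAGTGGTCAaggcttca
Fabp1: acaatcacTGACCTATGGCCTatatttga
Crat: gacgttcaAGGACACCGGTCAgacttgga
Etfa: gcacacccTTACCTTTGCCCTactcccaa
Slc25a20: cttaatgtAGGTGAAAGGTCGgtgtagcc
Slc27a2: tgaagaaaTGACCTTTGAGATatgccatc

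The stretches lie at chr10:55236702-55236730, minus strand (Acadvl), chr4:104749255-104749283, plus strand (Fabp1), chr3:34087302-34087330, minus strand (Crat), chr8:64788099-64788127, minus strand (Etfa), chr8:118243580-118243608, plus strand (Slc25a20) and chr3:134258017-134258045, plus strand (Slc27a2), all GRCr8. None of these 6 genes was called. Their log2 differences were -0.19 for Acadvl, -0.06 for Fabp1, -0.02 for Crat, 0.05 for Etfa, -0.12 for Slc25a20 and -0.04 for Slc27a2, with adjusted p from 0.18 to 0.89 (limma). The sequence TCAAGGTCA, bound by the oestrogen-related receptors that PGC-1 alpha also coactivates, occurred with at most 1 mismatch in 4 of 39 member windows (Crat, Eci1, Fabp1 and Hadh, 10.3%) and in 7.06% of all windows. It contains AGGTCA, so its matches can overlap those of the direct repeat. A match of letters is a description and shows no binding.

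Of 4 genes of fatty acid uptake and binding none was called, against 4.79% of all genes. Cd36, the membrane receptor that takes up long-chain fatty acids and is a classical PPAR target, was at 8.67, 8.65 and 8.81 in congenic rats, against 8.14, 7.62 and 8.40 in S rats. The groups did not overlap, and the log2 difference of 0.66 ± 0.17 (SE, 1.58-fold) just missed the threshold (adjusted p = 0.0589, limma). Leaving out S rat 2 gave 0.44, and the model with RNA quality gave -0.0097 ± 0.27. Slc27a2, the very long-chain transporter and synthetase FATP2 of the proximal tubule, was at 12.91, 12.86 and 12.81 in congenic rats, against 12.87, 12.96 and 12.86 in S rats (-0.04, 95% interval -0.18 to 0.11). Fabp3, a cytosolic fatty acid carrier of muscle and kidney, was at 12.28, 12.20 and 12.14 in congenic rats, against 12.26, 12.09 and 12.25 in S rats (0.01, 95% interval -0.16 to 0.18). In both carriers the groups overlapped. Fabp1, the carrier of liver and of the proximal tubule, was dim, at 5.03, 5.22 and 5.05 in congenic rats, against 5.15, 5.33 and 4.996 in S rats (log2 difference -0.06, 95% interval -0.28 to 0.16).

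Of 7 genes that activate fatty acids or split the activated form none was called, against 4.79% of all genes. The long-chain acyl-CoA synthetase Acsl1 was at 11.39, 11.25 and 11.29 in congenic rats, against 11.39, 11.37 and 11.57 in S rats (log2 difference -0.14 ± 0.08 SE, adjusted p = 0.33, limma). The synthetases Acsl3 (0.22), Acsl4 (0.10) and Acsl5 (-0.07) stood within 0.25 of 0, as did the thioesterases Acot1 (-0.06) and Acot2 (-0.07), which release free fatty acids from acyl-CoA. Acot1 itself was at 11.42, 11.30 and 11.28 in congenic rats, against 11.40, 11.37 and 11.42 in S rats. Acot1 and Acot2 are near-identical neighbours on chromosome 6, so their probe sets may share signal. Acsm3, a synthetase of medium-chain fatty acids in the mitochondrion, had the largest difference at a brightest probe set. It was at 11.51, 11.55 and 11.63 in congenic rats, against 11.41, 10.05 and 10.90 in S rats, a log2 difference of 0.78 ± 0.28 (SE, 1.71-fold, adjusted p = 0.12). The congenic values spread over 0.11 and the S values over 1.36, with S rat 2 at the bottom and no overlap. Leaving out S rat 2 gave 0.41, and the model with RNA quality gave -0.59 ± 0.27.

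The carnitine shuttle carries activated fatty acids across the inner mitochondrial membrane. None of its 6 genes was called at the brightest probe set, against 4.79% of all genes. Cpt1a, the liver and kidney form of the rate-limiting first enzyme, was at 11.24, 11.20 and 11.19 at its brightest probe set in congenic rats, against 11.20, 10.97 and 11.04 in S rats. That difference was 0.15 ± 0.08 (log2, SE, 1.11-fold, adjusted p = 0.27, limma), with no call. The second probe set was at 9.07, 9.35 and 9.45 in congenic rats, against 8.58, 7.89 and 8.12 in S rats. Here the groups were apart by 0.48 at their nearest, and the difference of 1.09 ± 0.17 (SE, 2.13-fold) was called (adjusted p = 0.0215). Both probe sets had the same direction, and the size differed by 0.95 between them. The second remained called without S rat 2 (0.94, adjusted p = 0.0253), without S rat 1 or without congenic rat 1. It missed the threshold without any one of the other rats, and stood at 0.31 ± 0.21 with the RNA quality term (adjusted p = 0.83).

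Cpt1b, the muscle and brown fat form of the enzyme, was at 9.29, 9.16 and 9.00 in congenic rats, against 9.20, 9.28 and 9.41 in S rats (log2 difference -0.15 ± 0.09 SE, adjusted p = 0.37, limma). The groups overlapped. Brown fat at the renal hilum also expresses this gene, and its defining marker Ucp1 was at 9.07, 8.55 and 8.16 in congenic rats, against 9.47, 9.39 and 10.33 in S rats. In both genes congenic rat 3 was lowest and S rat 3 highest, but the groups did not overlap in Ucp1. Ppargc1a, also counted as a brown fat marker here, was lowest in congenic rat 3 and highest in S rat 2. Fabp3, counted likewise, was lowest in S rat 2 and highest in congenic rat 1. Over 10 measured brown fat markers, which include Cpt1b, Fabp3 and Ppargc1a, 1 was called, Cox8b (-0.84, adjusted p = 0.0484), with Ucp1 at -1.14 and Cidea at -0.55. These had the largest differences of the list, whose median was -0.14. Of the 10 markers 3 stood above 0, against 40.6% of all genes. The log2 of their summed intensities ran from 12.79 to 13.01 in congenic rats and from 12.95 to 13.18 in S rats. That sum weighs bright genes most, here Fabp3 (mean 12.20), against a mean of 9.16 for Ucp1. The mean of the markers' log2 values ran from 7.58 to 7.85 in congenic rats and from 7.88 to 8.16 in S rats. Over 10 white fat markers Cidec was called lower (-0.61), with Plin1 at -0.66 and Cfd at -0.56, and the log2 sums ran from 12.21 to 12.42 in congenic rats and from 12.41 to 12.82 in S rats. The part of fat in the values of Cpt1b, Ppargc1a or Cd36 was not tested.

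Cpt2, the enzyme on the matrix side, was at 9.42, 9.37 and 9.47 in congenic rats, against 9.58, 9.44 and 9.47 in S rats (log2 difference -0.08, 95% interval -0.23 to 0.08). Slc25a20, the carnitine-acylcarnitine translocase between both enzymes, was at 9.45, 9.32 and 9.44 in congenic rats, against 9.53, 9.52 and 9.54 in S rats. Its groups did not overlap, and its difference of -0.12 did not pass (adjusted p = 0.28, limma). Crat, which makes acetylcarnitine, stood at -0.02. Crot, the peroxisomal octanoyltransferase that hands shortened chains to mitochondria, showed the same split between probe sets as Cpt1a. Its brightest stood at 0.0035 (95% interval -0.16 to 0.17). Its second was at 9.14, 9.07 and 9.25 in congenic rats, against 8.84, 7.83 and 8.23 in S rats (0.85 ± 0.21 SE, adjusted p = 0.0532). For that second probe set, leaving out S rat 2 gave 0.61, and the model with RNA quality gave -0.07 ± 0.29. Another, dim probe set stood at -0.07.

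**Figure D3:**
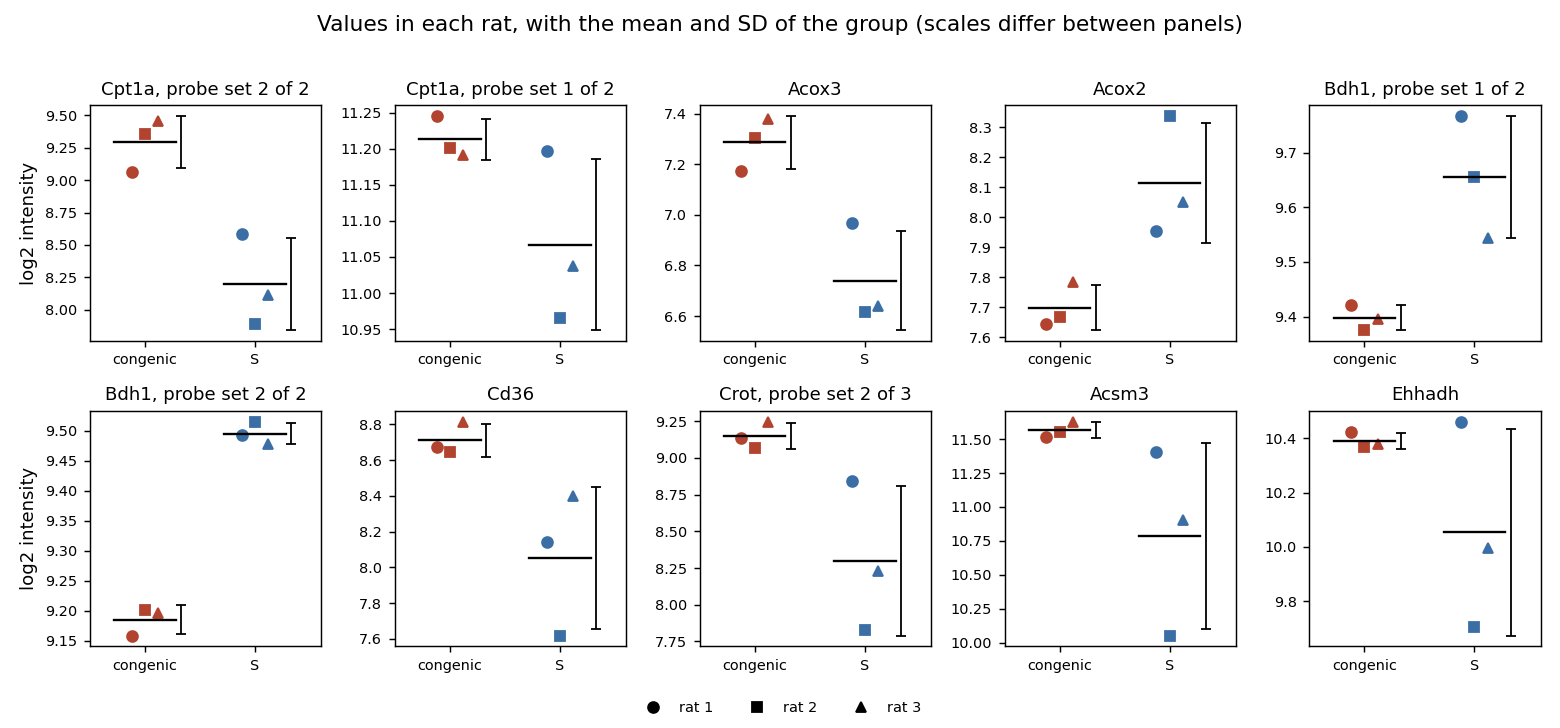
Log2 intensity in each rat of 10 probe sets of 8 genes, with the group mean (line) and SD (bar), n = 3 rats per group, congenic left and S right. The scale differs between panels. In the second probe set of Cpt1a and in Acox3 the congenic rats lie above all S rats, in both probe sets of Bdh1 and in Acox2 below them, and in Acsm3, Crot and Ehhadh the spread is mostly among S rats.

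Of 13 genes of mitochondrial beta-oxidation none was called, against 4.79% of all genes. All differences lay between -0.22 and 0.30 (log2). Of these, 6 were above 0 and 7 below, against 40.6% of all genes above 0. Among the acyl-CoA dehydrogenases, which start each turn, Acadm (medium chains) was at 13.15, 13.10 and 13.14 in congenic rats, against 13.37, 13.06 and 13.21 in S rats (-0.08, 95% interval -0.28 to 0.11). Acadl (long chains) was at 11.91, 11.81 and 11.87 in congenic rats, against 11.81, 11.46 and 11.65 in S rats (0.23, adjusted p = 0.17, limma). Acadvl (very long chains) was at 10.62, 10.57 and 10.44 in congenic rats, against 10.71, 10.85 and 10.65 in S rats (-0.19, adjusted p = 0.18). Acads (short chains) stood at -0.04. The congenic values lay above all S values in Acadl and below them in Acadvl, and neither passed. Acadl stood at 0.14 without S rat 2, and the model with RNA quality gave -0.06 for Acadl and 0.03 for Acadvl.

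The trifunctional protein, which carries out the later steps on long chains, has an alpha subunit from Hadha and a beta subunit from Hadhb. Both genes lie head to head on chromosome 6, with 300 bases between their annotated starts in the RefSeq windows. Hadha was at 11.91, 11.88 and 11.91 in congenic rats, against 11.91, 11.81 and 11.83 in S rats (log2 difference 0.05, 95% interval -0.09 to 0.19). Hadhb was at 12.48, 12.42 and 12.42 in congenic rats, against 12.56, 12.59 and 12.60 in S rats (-0.14, 95% interval -0.28 to -0.0066, adjusted p = 0.18, limma). The groups overlapped in Hadha and did not in Hadhb. Hadh, the dehydrogenase of shorter chains, stood at 0.19. Acaa2, the mitochondrial thiolase of the last step, was at 11.87, 11.60 and 11.68 in congenic rats, against 11.60, 11.29 and 11.37 in S rats (0.30 ± 0.10 SE, adjusted p = 0.12). It was the highest of the group, and the groups touched at 11.60.

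The auxiliary enzymes of unsaturated chains were Decr1 (0.05) and Eci1, an isomerase of double bonds. Eci1 was at 11.21, 11.00 and 11.05 in congenic rats, against 11.32, 11.35 and 11.23 in S rats (log2 difference -0.22 ± 0.08 SE, adjusted p = 0.12, limma). Electron transfer flavoprotein passes the electrons of beta-oxidation to the respiratory chain. Its beta subunit gene Etfb was at 12.27, 12.14 and 12.15 in congenic rats, against 12.37, 12.45 and 12.33 in S rats (-0.20 ± 0.07 SE, adjusted p = 0.12). The groups did not overlap in Eci1 or Etfb. The alpha subunit gene Etfa stood at 0.05 and the oxidoreductase gene Etfdh at -0.07. Of the measured members 2, Acadvl and Eci1, lie on chromosome 10, where the strain name puts the LEW segment. Neither was called, and whether they lie inside the segment was not analysed here.

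Peroxisomal beta-oxidation held the gene called at its brightest probe set and the widest range, from -0.42 to 0.55 (log2) over 6 genes. Acox3, an oxidase that starts the breakdown of branched-chain fatty acids, was at 7.17, 7.30 and 7.38 in congenic rats, against 6.97, 6.62 and 6.64 in S rats. Every congenic value lay above every S value, and the difference of 0.55 ± 0.11 (SE, 1.46-fold) was called (adjusted p = 0.0320, limma). It remained called without S rat 1 and missed the threshold without any one of the other 5 rats, with 0.48 without S rat 2 (adjusted p = 0.0559), and stood at 0.19 ± 0.17 with the RNA quality term. Acox2, the oxidase of bile acid intermediates and branched chains, leaned the other way, at 7.65, 7.67 and 7.78 in congenic rats, against 7.95, 8.34 and 8.05 in S rats. Its difference of -0.42 ± 0.10 (SE, 1.33-fold lower) just missed the threshold (adjusted p = 0.0513). Acox2 passed under quantile normalization, median centring, a filter on dim probe sets, an intensity trend, robust eBayes and array weights, and without S rat 1. It missed the threshold without any one of the other 5 rats (adjusted p from 0.0743 to 0.177), with rat number as a block and in the unmoderated test. With the RNA quality term it stood at -0.05 ± 0.16.

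The next peroxisomal steps are run by 2 enzymes with several activities. Ehhadh, the PPAR-alpha-induced one, was at 10.42, 10.37 and 10.38 in congenic rats, against 10.46, 9.71 and 10.00 in S rats (log2 difference 0.34 ± 0.16 SE, adjusted p = 0.24, limma). S rat 1 lay above all congenic rats, so the groups overlapped. The Ehhadh difference was 0.16 without S rat 2, 0.54 and called without S rat 1 (adjusted p = 0.00765), and -0.33 with RNA quality in the model. Hsd17b4, the enzyme of branched and very long chains, was at 11.69, 11.55 and 11.54 in congenic rats, against 11.60, 11.34 and 11.52 in S rats (0.11, adjusted p = 0.49). Eci2, a peroxisomal isomerase, was at 11.53, 11.48 and 11.49 in congenic rats, against 11.70, 11.70 and 11.68 in S rats (-0.19 ± 0.06 SE, adjusted p = 0.0911). The Eci2 values spread over 0.05 in congenic rats and 0.02 in S rats, with no overlap. Pex11a, a factor of peroxisome division that PPAR-alpha ligands induce in rodents, stood at -0.14 at its brightest probe set and at 0.37 at a dim one (adjusted p = 0.22 and adjusted p = 0.12).

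Of 4 genes of ketone body use and fuel choice none was called at the brightest probe set, against 4.79% of all genes. Bdh1 was called at its second. Bdh1 interconverts beta-hydroxybutyrate and acetoacetate in the mitochondrion. Its brightest probe set was at 9.42, 9.38 and 9.40 in congenic rats, against 9.77, 9.66 and 9.54 in S rats (log2 difference -0.26 ± 0.07 SE, adjusted p = 0.0726, limma). Its second was at 9.16, 9.20 and 9.20 in congenic rats, against 9.49, 9.52 and 9.48 in S rats (-0.31 ± 0.06 SE, 1.24-fold lower, adjusted p = 0.0317). Both probe sets separated the groups in the same direction and with similar mean differences. At their nearest the groups were apart by 0.12 at the brightest and by 0.28 at the second. Without 1 rat at a time the second lay between -0.32 and -0.30, and it remained called without S rat 1 only, with adjusted p up to 0.14 without the others. With the RNA quality term it stood at -0.30 ± 0.12, close to its value without the term, and was not called (adjusted p = 0.65).

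Oxct1, the enzyme that activates ketone bodies for burning outside the liver, was at 13.38, 13.38 and 13.35 in congenic rats, against 13.49, 13.40 and 13.40 in S rats (log2 difference -0.06, 95% interval -0.20 to 0.08). Acat1, the thiolase that splits acetoacetyl-CoA, stood at 0.15 at its brightest probe set and at -0.24 at its second (adjusted p = 0.27 and adjusted p = 0.11, limma). Pdk4, the kinase that shuts pyruvate out of the mitochondrion when fat is burned, was at 8.74, 8.61 and 8.55 in congenic rats, against 8.84, 8.86 and 8.97 in S rats. The groups did not overlap, and the difference of -0.25 ± 0.08 (SE) was not called (adjusted p = 0.0811). A dim second probe set stood at 0.17 (adjusted p = 0.26).

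The upstream sequences of the 3 members with a called probe set are shown, 250 bases up to the annotated start, with each CG dinucleotide in capitals. In Cpt1a and Bdh1 the brightest probe set was not called. They come from RefSeq (GRCr8), at chr1:209995910-209996159, plus strand (Cpt1a), chr14:79400882-79401131, minus strand (Acox3) and chr11:82842637-82842886, minus strand (Bdh1). None of the 3 windows held the direct repeat with 2 or fewer mismatches. Over the full windows the median GC content was 60.0% in the 39 members and 52.3% in 27457 genes.
Cpt1a: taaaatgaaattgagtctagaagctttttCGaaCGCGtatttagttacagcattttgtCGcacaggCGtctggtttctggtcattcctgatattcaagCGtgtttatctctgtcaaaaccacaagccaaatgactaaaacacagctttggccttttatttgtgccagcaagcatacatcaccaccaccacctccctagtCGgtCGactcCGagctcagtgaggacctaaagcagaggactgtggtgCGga
Acox3: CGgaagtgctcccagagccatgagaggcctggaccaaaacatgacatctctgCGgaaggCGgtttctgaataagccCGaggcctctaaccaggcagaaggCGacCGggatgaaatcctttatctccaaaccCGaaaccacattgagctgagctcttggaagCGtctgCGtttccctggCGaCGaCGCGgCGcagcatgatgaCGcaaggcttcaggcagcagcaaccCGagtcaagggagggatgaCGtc
Bdh1: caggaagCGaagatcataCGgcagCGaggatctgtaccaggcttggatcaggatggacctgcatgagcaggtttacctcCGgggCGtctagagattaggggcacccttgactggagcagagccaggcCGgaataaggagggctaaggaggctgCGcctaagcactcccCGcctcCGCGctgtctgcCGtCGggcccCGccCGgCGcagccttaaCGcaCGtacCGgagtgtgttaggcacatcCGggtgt

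Probe sets of 1 gene often disagreed. Of the 42 members 14 had more than 1 probe set, with 19 dimmer ones in all, of which 2 were called, Cpt1a and Bdh1, against 11.0% of the dimmer probe sets of all genes. Of those 6609 dimmer probe sets 612 were called higher, the direction of Cpt1a, and 116 lower, the direction of Bdh1. At the brightest probe sets of all 14217 genes 301 were called higher and 380 lower. The largest gaps between a dimmer and the brightest probe set were 0.95 for Cpt1a, 0.85 for Crot and 0.55 for Ppargc1a (log2). For Bdh1 the gap was 0.05. Dimmer probe sets of all genes had a median difference of 0.04 and brightest ones of -0.03. The position of each probe set in its transcript was not analysed here, so neither value can be preferred. With the mean of all probe sets of a gene in place of the brightest, 4 members were called: Cpt1a (0.62), Acox3 (0.55), Acox2 (-0.42) and Bdh1 (-0.28).

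**Figure D4:**
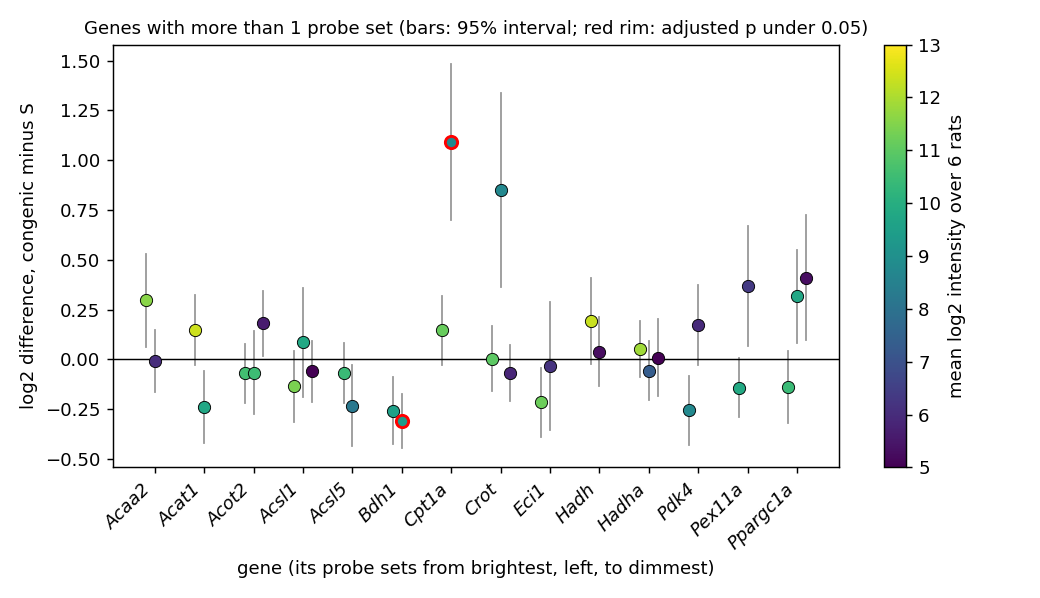
Log2 difference, congenic minus S, of every probe set of the 14 genes with more than 1, with its 95% interval, coloured by mean intensity over the 6 rats. The probe sets of Bdh1 lie together below 0, while the second ones of Cpt1a (1.09) and Crot (0.85) stand far above the brightest ones.

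With the RNA quality term 31 of the 61 member probe sets had the opposite sign (50.8%), against 44.1% of the array, and 0 were called. With it 2 of 61 were at an unadjusted p under 0.05, against 7.38% of the array. The median of the 42 members was -0.08 with the term and -0.05 without it, and without S rat 2 it was -0.05. RNA quality and strain cannot be told apart in full here, since no congenic value of the gap overlaps an S value.

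**Figure D5:**
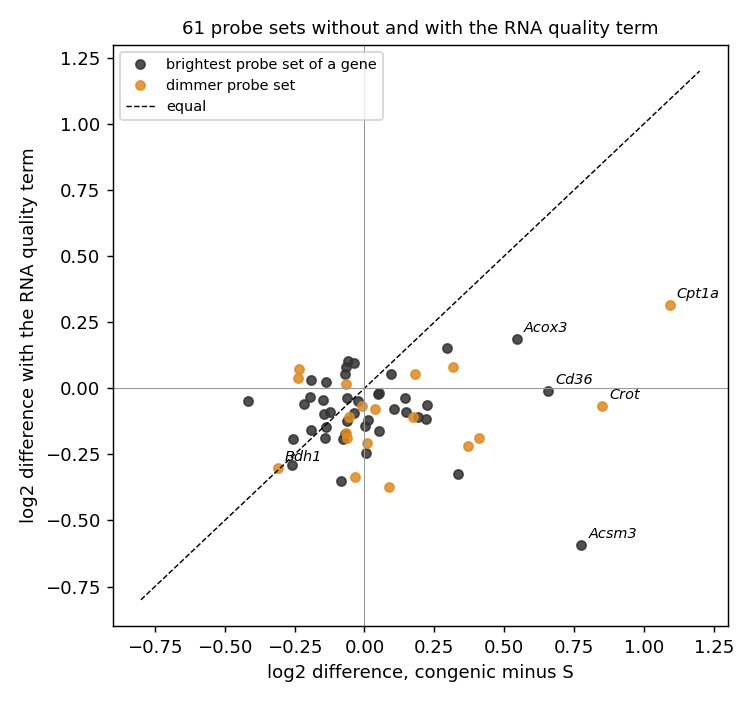
Log2 difference, congenic minus S, of 61 probe sets without (x axis) and with (y axis) the 3′ minus 5′ control difference in the model, brightest probe sets in grey and dimmer ones in orange. Cpt1a, Crot, Cd36, Acsm3 and Acox3 lie far below the line of equal values, and Bdh1 lies on it.

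Other genes of the same pathways were taken from 5 lists that hold no member. Of 131 measured genes, each at its brightest probe set, 5 were called higher, against 2.12% of all genes, and 4 lower, against 2.67%, with a median of -0.05. A dimmer probe set of Hnf4a was called higher (0.58, adjusted p = 0.048, limma), while its brightest stood at -0.16. Dimmer probe sets of Gnpat (-0.45, adjusted p = 0.0452) and Slc25a32 (-0.365, adjusted p = 0.0399, mean intensity 4.62) were called lower. Among 18 PPAR family members and partners Rxra, the partner of PPAR-alpha, was called higher (0.43, adjusted p = 0.0469, limma) and Esrrg, an oestrogen-related receptor of oxidative tissues, lower (-0.34, adjusted p = 0.0300), while Ppard stood at -0.24 (adjusted p = 0.0808). Among 23 other PPAR-alpha targets 2 were called, both higher. Cyp4a1, a fatty acid omega-hydroxylase, was at 11.04, 10.77 and 10.69 in congenic rats, against 10.28, 9.97 and 10.01 in S rats (0.75 ± 0.12 SE, 1.68-fold, adjusted p = 0.0210). Vnn1, a pantetheinase, was at 9.50, 9.05 and 9.32 in congenic rats, against 8.91, 8.55 and 8.57 in S rats (0.61 ± 0.13 SE, adjusted p = 0.0397). With the RNA quality term Cyp4a1 stood at 0.65, Vnn1 at 0.52, Rxra at 0.10 and Esrrg at -0.20, and none was called. Plin2, a lipid droplet coat protein, stood at 0.26 (adjusted p = 0.0708).

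None of 29 other genes of mitochondrial fatty acid oxidation was called at the brightest probe set. Acadsb, a dehydrogenase of branched short chains, stood at 1.00 (log2 difference, adjusted p = 0.0517, limma), Eci3 at -0.25 and the carnitine transporter gene Slc22a5 at 0.36. Among 37 other peroxisomal genes Abcd3, a fatty acid importer of the peroxisome, was at 10.56, 10.49 and 10.50 in congenic rats, against 10.90, 11.29 and 11.02 in S rats, and fell (-0.55 ± 0.10 SE, adjusted p = 0.0271). Hao1, a hydroxyacid oxidase, rose (1.13 ± 0.25 SE, adjusted p = 0.0408), and Pex19 stood at -0.29. Among 29 other genes of uptake and activation Slc16a1, the monocarboxylate transporter MCT1 that carries lactate and ketone bodies, was at 9.16, 8.96 and 9.28 in congenic rats, against 8.22, 7.64 and 7.73 in S rats, and rose (1.27 ± 0.15 SE, 2.41-fold, adjusted p = 0.0157). Acss2, an acetyl-CoA synthetase of the cytosol, fell (-0.32, adjusted p = 0.0382), as did the fatty acid carrier Fabp5 (-0.53, adjusted p = 0.0409). With the RNA quality term Slc16a1 stood at 0.84, Hao1 at 0.33, Abcd3 at -0.13, Acss2 at -0.14 and Fabp5 at -0.0070, and none was called.

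The markers of the proximal tubule, the main site of fatty acid oxidation, moved in both directions. Of 12 early markers 4 were called higher, Slc5a12 (2.28), Slc4a4 (1.94), Slc5a2 (1.67) and Slc22a8 (1.66), and Slc22a12 lower (-0.43), with a median log2 difference of 0.26 (limma). Slc5a12, a lactate transporter, was at 8.87, 7.97 and 8.31 in congenic rats, against 6.98, 5.44 and 5.89 in S rats, so S rats 2 and 3 lay under the lower quartile of 5.91. Slc4a4, a bicarbonate transporter, was at 11.85, 11.38 and 11.78 in congenic rats, against 10.79, 8.72 and 9.68 in S rats. With the RNA quality term Slc5a12 stood at 1.33, Slc4a4 at 0.18, Slc5a2 at 0.60, Slc22a8 at 0.59 and Slc22a12 at -0.27, and none was called. Of the early markers not called, Slc34a1 (0.28), Gatm (0.28), Slc22a6 (0.24) and Cubn (0.04) stood above 0. Kap (-0.025), Lrp2 (-0.09) and Miox (-0.0085) stood below it. Kap was at 14.89 to 14.94 in congenic rats and 14.90 to 14.99 in S rats. Lrp2 was at 13.51 to 13.53 in congenic rats and 13.57 to 13.67 in S rats. The groups overlapped in Kap and did not in Lrp2 or Slc34a1. Of 9 late markers Slc16a9 was called higher (0.72) and Slc22a7 (-0.50) and Agt (-0.35) lower, with a median of -0.08. The log2 of summed intensities of the early list ran from 16.85 to 16.91 in congenic rats and from 16.73 to 16.84 in S rats, and that of the late list from 16.36 to 16.38 in congenic rats and from 16.41 to 16.46 in S rats. Such sums weigh bright genes most. The mean log2 value of the early list ran from 12.37 to 12.61 in congenic rats and from 11.55 to 12.16 in S rats. For the late list it ran from 11.70 to 11.75 in congenic rats and from 11.71 to 11.78 in S rats.

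Among markers of the other cell types, 3 of 6 fibroblast genes were called higher, Lum (1.76), Dcn (0.57) and Col1a1 (0.44), and 3 of 6 macrophage genes, Cd14 (0.39), C1qb (0.46) and C1qa (0.42). Called lower were Cldn16 of the thick ascending limb (-0.35, 1 of 6), where Kcnj1 stood at 0.58 and Umod at -0.10, and Slc4a1 of the collecting duct (-0.28, 1 of 9), where Scnn1g stood at 0.29 and Atp6v1b1 at 0.45. None of the 5 endothelial, 4 podocyte, 3 distal convoluted tubule, 7 skeletal muscle and 2 red cell genes was called. In endothelium Flt1 stood at 0.29, Kdr at 0.28 and Tek at -0.09, in podocytes Podxl at 0.23, Nphs1 at 1.19 and Wt1 at 1.05, and in the distal convoluted tubule Calb1 at 1.62, Slc12a3 at 1.05 and Pvalb at 0.0086. In muscle Acta1 stood at 0.29, Myh1 at -0.11 and Actn3 at 0.11, and in red cells Alas2 at -0.40 and Hbb at 0.12. The part of these markers in the values of the fatty acid oxidation genes was not tested.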

How the data were processed

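Per the labels' protocols, kidney RNA of each rat was hybridised to an Affymetrix rat expression array. The authors deposited log2 intensities of 31099 probe sets on a scale already comparable between arrays, judged from the values (array medians 7.47 to 7.51). Their summary and normalization method is not given in the sources used here. The submitters worked in R 2.8.1, per the series' design text.

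Tests left out 57 Affymetrix controls. Probe sets took gene symbols from the platform annotation, updated by Entrez identifier to RefSeq (GRCr8): 20826 had 1 symbol, 436 several and 9780 none. The test was limma 3.58.1 under R 4.3.3 (moderated by eBayes, two-sided, Benjamini-Hochberg over 31042 probe sets, called at adjusted p under 0.05). All adjusted p-values in the text come from limma. Each gene was read at its brightest probe set by mean over the 6 rats, and probe sets are numbered by that mean. The labels name the animals as separate rats.

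Values in every rat are given for members with a called probe set, members at an unadjusted p under 0.05 and 20 members fixed by name. Of each pathway and cell type list, genes that passed and up to 3 with the smallest p were named. The early proximal tubule markers that were not called, Kap and Lrp2 among them, were named after their values were seen. The members and lists were chosen with earlier results of these data known. Which rats shared a cage is not given in the sources used here, so cage was not modelled. Same-numbered rats' deviations from the group means correlated at -0.01, -0.18 and -0.14, and those of other pairs at -0.25 to 0.38, so rat numbers were not used to pair the groups. Alternatives were other normalizations, a filter at the percentile 40 of mean intensity, other variance models, weights per array, blocking by rat number, dropping 1 rat at a time, an RNA quality term, and other choices of probe set and threshold. Figures were drawn with matplotlib 3.10.9.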

Additional observations from a re-analysis of the deposited data

How the results depend on the processing

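The median log2 difference of the 42 members kept its sign and moved by less than the SD of the rats' own medians (0.04) under every alternative run, from -0.08 with the RNA quality term to -0.03 without S rat 1, -0.03 with the mean of all probe sets and -0.03 with the most variable probe set. The counts of calls did depend on the setting. At the brightest probe set 2 members were called in place of 1 under quantile normalization, median centring, the filter on dim probe sets and robust eBayes, 4 with an intensity trend and with the mean of all probe sets, 3 with the most variable probe set, and 9 with array weights. Over the 61 member probe sets 3 calls became 5 with median centring, 7 with an intensity trend, 15 with array weights, 10 at an adjusted p under 0.1 and 0 at 0.01, and over the array 1862 became 6077 with array weights. The unmoderated test called 0 probe sets of the array, 0 member probe sets and 0 member genes (6166 and 17 probe sets at an unadjusted p under 0.05), as did the RNA quality term (2292 and 2). With the rat number as a replicate block 658 probe sets of the array, 1 member probe set (the second of Cpt1a) and 0 member genes at the brightest probe set were called. Leaving out 1 rat gave 0 to 4752 calls over the array, 0 to 14 member probe sets and 0 to 8 member genes at the brightest probe set, with 0 member probe sets without S rat 3, without congenic rat 2 or without congenic rat 3, 1 without S rat 2 or congenic rat 1, and 14 without S rat 1, where Acsl3, Acsm3, Acaa2, Acadl, Acox2, Acox3, Ehhadh and Cd36 were called at the brightest probe set. Of the 3 called probe sets all were kept under quantile normalization, median centring, the filter, the trend, robust eBayes and array weights. No called value of a named member changed sign under any alternative run. With the RNA quality term 13 of 30 named values changed sign, none of them called. The cause of these changes was not tested. Precision rests on 3 rats per group, and probe sets near the lower quartile of intensity have no detection call.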
